A study of Mus musculus with 18 samples.

Results

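Lamp1, Ctsl, Ctsd and Gabarapl1 are 4 genes of the lysosome and of autophagy, the route that encloses worn or unneeded organelles and carries them to the lysosome. They were chosen by gene symbol, and with earlier results of these same arrays known, out of 5974 genes that the array names by 1 symbol. Each had 1 of the 6868 probes: M003152_01 for Lamp1, M000290_01 for Ctsl, M000739_01 for Ctsd and M003023_01 for Gabarapl1. Because their ratios by day had a part in that choice, the values of the 4 genes are given as a description, with standard errors and without a test.

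The RNA was that of MEL (murine erythroleukemia) cells, a mouse cell line arrested as red cell precursors, which the compound hexamethylene bisacetamide (HMBA) drives to differentiate. Each of 18 two-colour arrays held RNA of a given day after HMBA beside RNA of uninduced control cells, and day 0 arrays set control RNA against itself. There were 7 arrays in series A, for each day from 0 to 6, and 6 in series B, which lacks day 1. Another 5 of series B carry SD in their titles, for days 0, 2, 3, 5 and 6, and on days 2, 3, 5 and 6 the labels exchange which channel held induced RNA. The labels do not say whether arrays had cultures of their own, so standard errors and p-values cover only array-to-array spread, which may be technical. An array held values for 2008 to 4945 probes.

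Lysosomes are the acid compartments in which cells break down proteins, lipids and whole organelles. Maturing red cells lose their mitochondria, ribosomes and internal membranes, and autophagy is one of the routes by which they do so. Lamp1 is a heavily glycosylated protein of the lysosome's limiting membrane. Ctsl and Ctsd encode cathepsins L and D, a cysteine and an aspartic protease that digest proteins inside it. Gabarapl1 belongs to the Atg8 family, whose proteins are attached to lipids of the growing autophagosome.

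Many lysosomal genes carry the letters CACGTG upstream, the core of the element read by the transcription factor TFEB. The sequences before the start sites are shown so that these letters can be seen in place. They are the 250 bases before the start in RefSeq, build GRCm38, 5′ to 3′, with each CACGTG in capitals, at chr8:13158911-13159160 (plus strand) for Lamp1, chr7:142387828-142388077 (minus strand) for Ctsd and chr6:129532942-129533191 (plus strand) for Gabarapl1.
Lamp1: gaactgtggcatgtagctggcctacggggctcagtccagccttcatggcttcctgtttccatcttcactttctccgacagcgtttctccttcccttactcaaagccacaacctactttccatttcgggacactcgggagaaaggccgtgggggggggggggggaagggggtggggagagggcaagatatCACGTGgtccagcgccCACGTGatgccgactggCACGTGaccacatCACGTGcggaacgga
Ctsd: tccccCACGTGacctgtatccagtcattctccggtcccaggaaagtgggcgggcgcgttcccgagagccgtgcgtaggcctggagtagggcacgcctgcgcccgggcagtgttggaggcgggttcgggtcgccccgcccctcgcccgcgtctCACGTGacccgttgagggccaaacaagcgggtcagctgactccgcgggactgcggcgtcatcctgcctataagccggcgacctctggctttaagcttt
Gabarapl1: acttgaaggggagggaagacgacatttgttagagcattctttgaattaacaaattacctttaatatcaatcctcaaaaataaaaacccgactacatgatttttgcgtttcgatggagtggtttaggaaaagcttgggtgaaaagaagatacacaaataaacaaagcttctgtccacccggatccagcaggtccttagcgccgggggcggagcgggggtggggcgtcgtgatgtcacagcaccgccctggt

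The letters CACGTG, which read the same on both strands, stood 4 times before Lamp1, all within 61 bases of the start. They stood 2 times before Ctsd, beginning 245 and 98 bases before the start, and 0 times before Gabarapl1. Of 19827 promoters of this length, 5.57 percent held at least 1 copy, 0.333 percent at least 2 and 0.0202 percent at least 4. For the 2751 of them that belong to genes on the array, these shares were 7.82, 0.618 and 0.0727 percent. Among 54 other genes of the lysosome and autophagy lists described further on, these shares were 20.4, 3.7 and 0 percent. Only windows whose start site is the gene's outer boundary were counted, 19827 of 32851, so not all of the 107 list genes are included. The GATA letters AGATAA or TGATAA, searched on both strands, were in none of the 3 windows and in 18.9 percent of all promoters. For Ctsl the start site of the available window lies 252 bases from the gene's outer boundary, so the window is not shown. A match is a description of letters and not of binding.

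Ratios are on the log2 scale, centred on the median of each array, and likely run as induced over control. That direction rests on the globin probes, whose induction by HMBA is textbook knowledge. Hba-ps3, of the alpha-globin family, stood at 0.51 and 0.67 on the day 0 arrays of series A and B and between 3.87 and 6.38 on the 6 arrays of days 4, 5 and 6. On the SD arrays of days 2, 5 and 6 the same probe read -4.25, -2.78 and -4.20, the opposite sign, and 0.94 on day 3. The beta-globin probe Hbb-b2 read -0.86 and -3.11 on SD days 5 and 6, but 1.05 and -0.09 on SD days 2 and 3. Over all probes, B and SD arrays of the same day correlated with Pearson's r of 0.58, 0.42, 0.43 and 0.52 on days 2, 3, 5 and 6, and 0.66 on day 0, a correlation across probes, which are not independent replicates. This correlation does not settle whether the sign turned, since it was highest on day 0, where both channels held control RNA. The SD arrays therefore entered no fit of the main comparisons, which rest on 13 arrays. Their values for the 4 genes are given beside the others.

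Cathepsin L had the most complete series, with 12 of the 13 arrays. In series A the ratios of Ctsl from day 0 to day 5 were, in order, -1.57, -0.68, -1.06, -0.51, 0.45 and 1.42, with no value on day 6. In series B they were -2.53 on day 0 and then, from day 2 to day 6, -1.62, -3.16, -2.16, -2.60 and 2.32. Series A thus went from the lowest value on day 0 to the highest on day 5, whereas in series B the values of days 4 and 5 lay beside that of day 0 and day 6 alone was high. On the SD arrays Ctsl was at -4.31, -3.22, -0.81, -5.25 and -4.31 on days 0, 2, 3, 5 and 6. It was below 0 on all 5 of them, day 0 included, where both channels held control RNA.

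Cathepsin D lay closer to 0. In series A the ratios of Ctsd from day 0 to day 2 were -0.62, -1.20 and 0.23, and from day 4 to day 6 they were -0.20, 1.74 and 0.09. In series B those from day 2 to day 6 were 0.76, -0.33, 2.05, 0.40 and -0.15. The high arrays were day 5 in one series and day 4 in the other, and day 6 was near 0 in both. On SD arrays it was at -1.35, -1.38 and -0.86 on days 2, 3 and 6. These 3 values were below the B arrays of the same days.

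The membrane protein gene Lamp1 differed widely between arrays of the same day. In series A its ratios from day 0 to day 5 were -1.29, -0.41, 2.80, -0.20, 0.07 and -0.04. In series B they were -3.37 for day 0, -0.38 and -1.80 for days 2 and 3, and 2.66 and -0.20 for days 5 and 6. The day 2 array of series A and the day 5 array of series B stood out, at the 99.8 and 96.0 percentile of their arrays, and the other series read near 0 on both days. On SD arrays Lamp1 was at -1.10, -1.57 and -0.95 on days 0, 2 and 5.

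Gabarapl1 was measured on 9 of the 13 arrays, under the minimum of 11 set for testing. In series A the ratios of Gabarapl1 from day 0 to day 6 were -1.67, -0.73, 1.11, 0.32, -0.55, 0.47 and 0.19. Series B held 2 values, -0.82 on day 4 and 2.10 on day 6. Day 0 was the lowest value and day 6 of series B the highest, and both arrays of day 4 lay below those of days 2 and 3. On SD arrays it was at -0.48, -0.98 and -0.10 on days 2, 3 and 6. Whether this probe also binds transcripts of other Atg8 family genes was not tested.

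**Figure D1:**
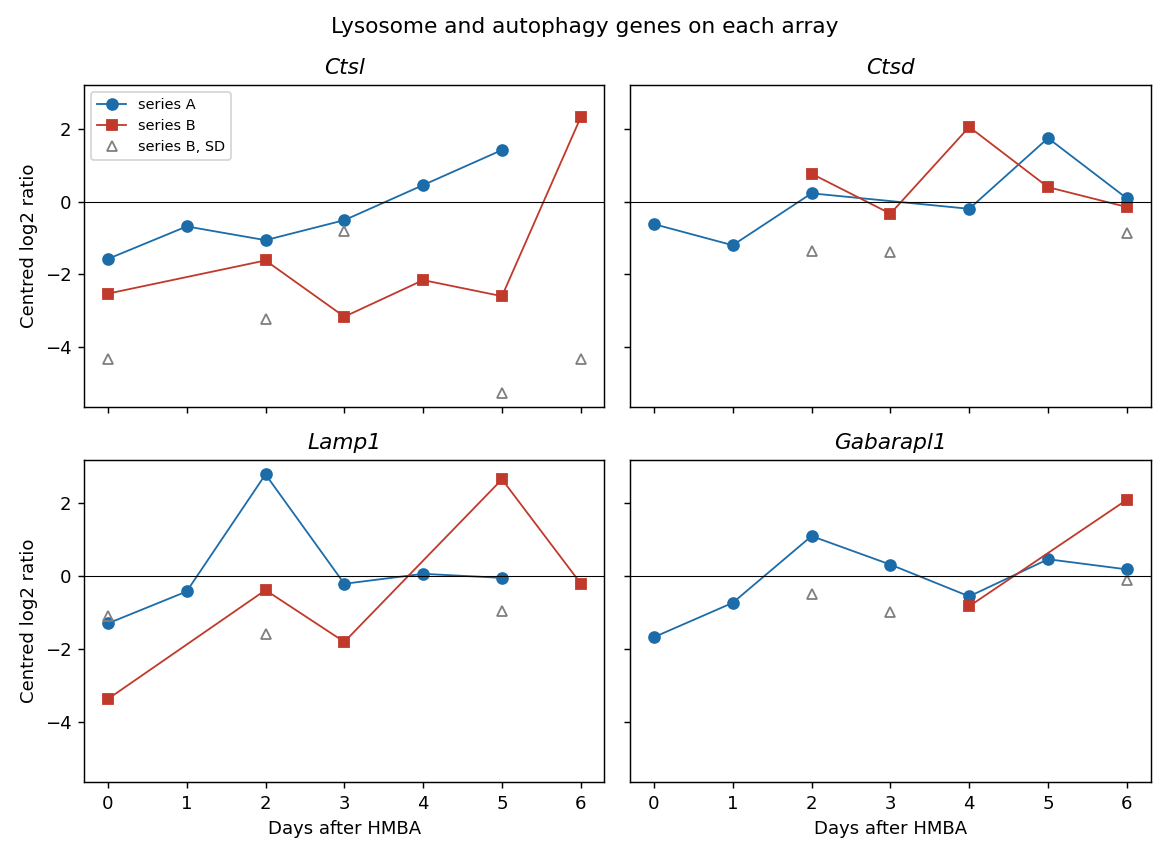
Centred log2 ratio (y) by days after HMBA (x) for each gene, 1 point per array; filled circles are series A, squares series B and open triangles the SD arrays, and lines join arrays of a series. Without the SD arrays, a day 0 array is the lowest for Lamp1 (-3.37) and Gabarapl1 (-1.67) but not for Ctsl or Ctsd, and the SD values of Ctsl lie between -5.25 and -0.81.

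By day, the means of Ctsl ran in the order day 0 (-2.05 ± 0.67, SD, n = 2), day 3 (-1.83 ± 1.87, n = 2), day 2 (-1.34 ± 0.39, n = 2), day 4 (-0.85 ± 1.84, n = 2), day 1 (-0.68, n = 1), day 5 (-0.59 ± 2.84, n = 2) and day 6 (2.32, n = 1). Every neighbouring pair below day 6 differed by less than the SD of at least 1 of its days, where an SD exists. For Ctsd the highest means were those of day 5 (1.07 ± 0.95, SD, n = 2) and day 4 (0.92 ± 1.59, n = 2), then day 2 (0.50 ± 0.38, n = 2), day 6 (-0.03 ± 0.17, n = 2), day 3 (-0.33), day 0 (-0.62) and day 1 (-1.20), the last 3 with n = 1. Lamp1 was highest on day 5 (1.31 ± 1.91, SD, n = 2) and day 2 (1.21 ± 2.25, n = 2), then day 4 (0.07), day 6 (-0.20) and day 1 (-0.41) with n = 1 each, day 3 (arrays at -0.20 and -1.80) and day 0 (-2.33 ± 1.47, n = 2). The means of days 5 and 2 were not distinguishable within these spreads. Gabarapl1 was highest on day 6 (1.15 ± 1.35, SD, n = 2) and day 2 (1.11), followed by days 5 (0.47), 3 (0.32), 4 (-0.68 ± 0.19, n = 2), 1 (-0.73) and 0 (-1.67), each of the others with n = 1.

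The late comparison set the mean of days 4, 5 and 6 against day 0 and asked how transcripts stood at the end of the time course. All 4 genes had a positive late difference. It was 2.72 log2 for Lamp1 (SE 1.09), from a mean of -2.33 on day 0 to 0.39 late, with 4 of 4 late arrays above every day 0 array. For Ctsl it was 2.34 (SE 1.09), from -2.05 to 0.29, with 3 of 5 late arrays above the day 0 mean, so that the groups overlapped. Gabarapl1 had 1.98 (SE 1.14), from -1.67 to 0.31 and above the single day 0 array on 5 of 5. Ctsd had 1.27 (SE 1.04), from -0.62 to 0.65, above the single day 0 array on 6 of 6.

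The 3 genes whose late arrays all lay above day 0 compare with 5.53 percent of the 1211 probes tested late, or 10 percent of 2615 when no minimum of arrays was set. Nothing is read from that count, because this contrast had a part in the choice of genes. limma called 0 of the 1211 probes at an adjusted p under 0.05 (0 percent), so 0 of the 3 genes that entered the test, and 28 probes (2.31 percent) had an unadjusted p under 0.05. With the series letter as a block the count was 1 (0.0826 percent), not one of these genes, and against 0 in place of day 0 it was 309 (25.5 percent), again none of them. The late difference of Lamp1 was 1.69 when the day 0 array of series B was left out and 3.76 when that of series A was. The late difference of Ctsl was 1.33, over days 4 and 5, when its only day 6 array, that of series B, was left out.

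Within each series the late differences kept their sign. Lamp1 stood 1.31 above day 0 in series A (2 late arrays) and 4.60 in series B (2 late arrays). Ctsl stood 2.51 above it in series A (2 late arrays) and 1.71 in series B (3 late arrays). Ctsd and Gabarapl1 stood 1.16 and 1.71 above it in series A, with 3 late arrays each. In series B neither had a day 0 value.

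Day 0 ratios of these probes were mostly low. With control RNA in each channel, Ctsl was at the 3.67 and 7.02 percentile of its day 0 arrays of series A and B, Lamp1 at the 7.96 and 3.04, and Gabarapl1 at the 2.54 percentile on its one. Ctsd was at the 26.3 percentile. Over all tested probes, the 303 with the lowest 25 percent of day 0 ratios, Ctsl and Lamp1 among them, had a median late difference of 0.48, and 222 of them were above 0. The 303 with the highest had a median of -0.0017. Without subtracting day 0, the mean late ratios of Ctsl, Ctsd, Lamp1 and Gabarapl1 were 0.29, 0.65, 0.39 and 0.31. How far a probe's own offset sets the late differences of the 4 genes was not tested.

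**Figure D2:**
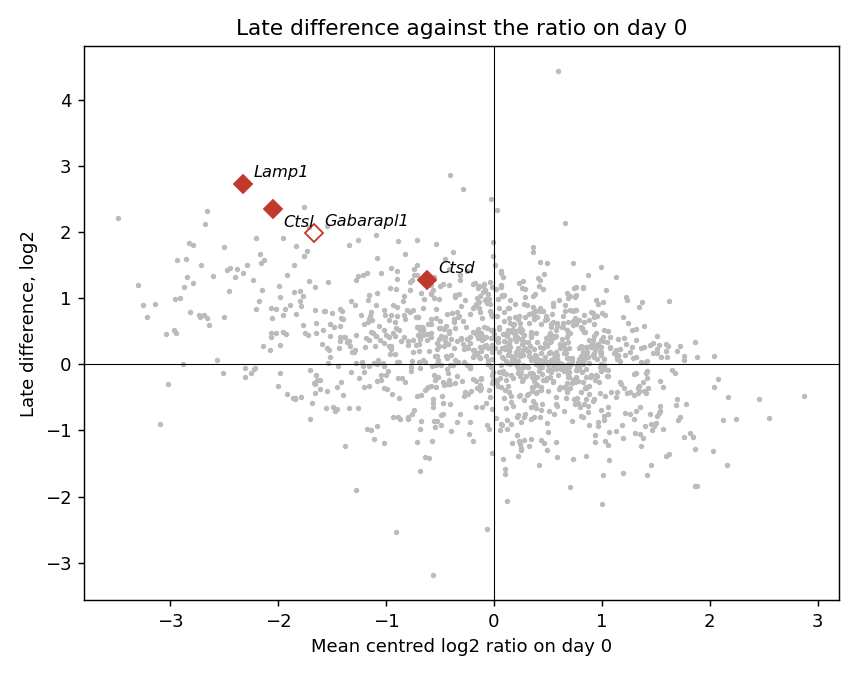
Late difference in log2 (y) against the mean centred log2 ratio on day 0 (x) for the 1211 probes tested (grey) and the 4 genes (diamonds; open for Gabarapl1, which was not tested). Lamp1 (-2.33, 2.72), Ctsl (-2.05, 2.34) and Gabarapl1 (-1.67, 1.98) lie at the upper left, where day 0 ratios are low.

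The B and SD arrays of a day offer a reading that does not lean on day 0. If the labelled exchange of channels turned the sign, as Hba-ps3 did on days 2, 5 and 6, the B value minus the SD value, divided by 2, removes an offset that a probe has on both arrays. For Hba-ps3 this gave 3.24, 0.56, 4.37 and 4.04 on days 2, 3, 5 and 6, and for Hbb-b2 it gave -0.37, 0.27, 0.61 and 2.66. Ctsl gave 0.80, -1.17, 1.33 and 3.31 on these days, the last at the 99.8 percentile of 1609 probes. Its SD array read -4.31 on day 6 and also on day 0. Only its B array differed between these days, at 2.32 and -2.53. Ctsd gave 1.06, 0.52 and 0.36 on days 2, 3 and 6, and Lamp1 gave 0.60 on day 2 and 1.80 on day 5.

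Gabarapl1 had 1 such pair, 1.10 on day 6. On day 0, where no sign should differ, Ctsl gave 0.89 and Lamp1 -1.13, which is the size that 2 arrays of control RNA reached without induction. The values of Ctsl on day 2 and of Lamp1 on day 2 did not exceed those sizes. Ctsd and Gabarapl1 had no pair on day 0 to be set against. All their values, the highest 1.10, were smaller in size than the -1.13 of Lamp1 on day 0. The medians over all probes were 0.02, -0.48, 0.08 and 0.14 on days 2, 3, 5 and 6, with SDs of 0.72, 0.76, 0.86 and 0.78.

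**Figure D3:**
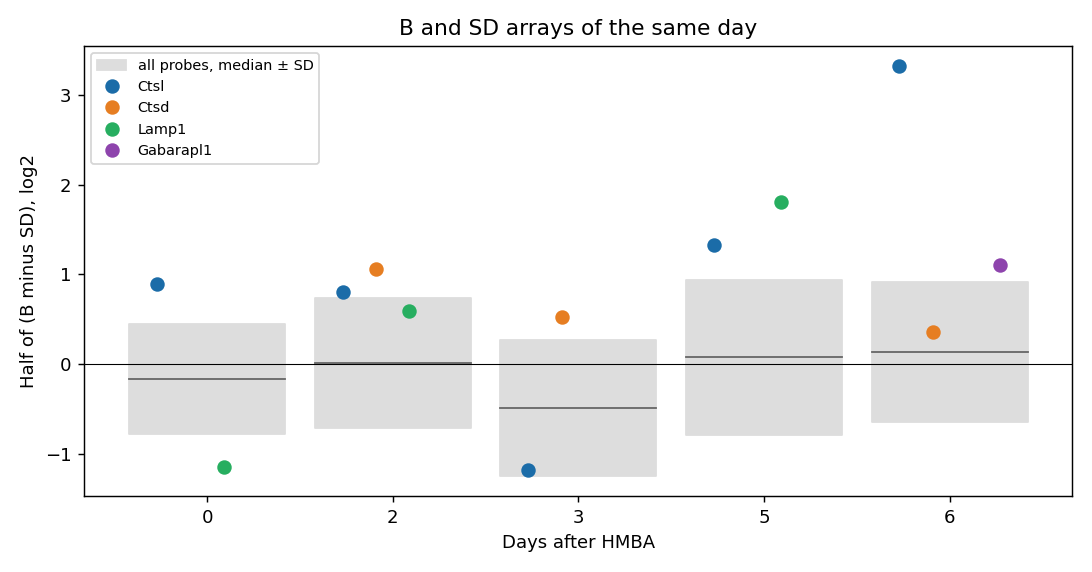
B value minus SD value divided by 2, in log2 (y), for each day with both arrays (x); coloured points are the 4 genes, and grey bands show the median ± SD over all probes with both values. Ctsl reaches 3.31 on day 6, Lamp1 1.80 on day 5, and on day 0 these 2 genes lie at 0.89 and -1.13.

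All 18 arrays were also fitted with a constant offset per probe and the opposite sign on SD arrays. Ctsl then kept a late value of 2.22 log2 (SE 0.52, 17 arrays) and an offset of -2.14. The offset was held equal on B and SD arrays, although on day 0 Ctsl read -2.53 on one and -4.31 on the other. With B and SD arrays of a day averaged into 1, SD signs turned, the late difference of Ctsl from day 0 was 1.62. In that setting the SD array of day 0 was turned as well, although both of its channels held control RNA. This put Ctsl at 0.89 on day 0 of series B in place of -2.53, so the 1.62 rests on a changed baseline. The values of Ctsl fitted with the offset were 1.46, 0.89, -0.24, 1.29, 2.07 and 3.31 on days 1 to 6. Ctsd was at 1.19 late (SE 0.44, 14 arrays). Lamp1 was at 0.89 (SE 0.73, 14 arrays) and Gabarapl1 at 0.23 (SE 0.54, 12 arrays), far below their differences from day 0. The offsets of Lamp1 and Gabarapl1 were -0.69 and -0.041, against day 0 means of -2.33 and -1.67. The SEs treat B and SD arrays of a day as separate, although they may hold the same RNA. Over all probes limma called 16 of 1220 late in the fit with the offset (1.31 percent), Ctsl among them. Nothing is read from that call, because the ratios of Ctsl had a part in its choice. The count was 0 of 1220 when the turned SD arrays, that of day 0 included, were averaged with B (53 at an unadjusted p under 0.05).

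How soon transcripts differed was asked by setting days 1 and 2 together against day 0, the early comparison. Lamp1 had an early difference of 2.73 (SE 1.16), which was 1.93 when the day 2 array of series A was left out and 1.69 when the day 0 array of series B was. Gabarapl1 had 1.86 (SE 1.27, 2 early arrays, both of series A), Ctsl 1.04 (SE 1.20) and Ctsd 0.27 (SE 1.13). Without day 0 of series B the early difference of Ctsl was 0.56, and without day 2 of series B that of Ctsd was 0.13. Leaving out day 2 of series A gave 0.40 for Ctsd. limma called 0 of 1060 probes early (0 percent), and 37 had an unadjusted p under 0.05 (3.49 percent).

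The late minus early difference, which uses no day 0 array, was 1.30 for Ctsl (SE 0.99) and 1.01 for Ctsd (SE 0.71). It was -0.0046 for Lamp1 (SE 1.00) and 0.12 for Gabarapl1 (SE 0.88), and the sign of both depended on single arrays. Leaving out the day 5 array of series A gave 0.63 for Ctsl, and leaving out the day 4 array of series B gave 0.63 for Ctsd. With SD arrays averaged into B as deposited, Ctsl was at 0.18, below Gabarapl1 at 0.33. These intervals overlap, and the difference between genes was not tested. limma called 0 of 1050 probes (0 percent), with 67 at an unadjusted p under 0.05 (6.38 percent).

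Across the 13 arrays the 4 genes did not run closely together. Pearson's r, a description over arrays that share a platform and control RNA, was 0.16 for Lamp1 and Ctsl (11 arrays), 0.02 for Ctsl and Ctsd (10 arrays) and 0.29 for Lamp1 and Ctsd (9 arrays). It was 0.69 for Ctsl and Gabarapl1 (8 arrays), 0.51 for Lamp1 and Gabarapl1 (7 arrays) and 0.11 for Ctsd and Gabarapl1 (8 arrays). Among probes sharing at least 10 arrays, Ctsl was most like S100a10 (r = 0.90), Dynll1 (0.89) and Ap2m1 (0.87), of 1121 compared. Lamp1 was most like Hipk1 (0.88), Hmgn1 (0.84) and Plek (0.84), of 786, and Ctsd most like Mxi1 (0.84), Rit2 (0.80) and Itsn1 (0.78), of 854. Gabarapl1 had too few arrays for this comparison.

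Other genes of the lysosome and of autophagy were taken from lists that hold 107 genes on 109 probes. limma called 0 of them in either direction in the late, early and late minus early comparisons (22, 21 and 21 tested), and 0 had an unadjusted p under 0.05. A late difference could be formed for 54 probes, of which 40 were above 0 and 14 below, with a median of 0.39 log2, which was 0.20 without the day 4 array of series A and 0.74 without the day 0 array of series A. Over all 2615 probes 59.4 percent were above 0 and the median was 0.16. Without centring, 44 of the 54 were above 0 with a median of 0.65, beside 1938 of all 2615 probes. The median over all tested probes then went from 0.21 to 0.46. When day 0 was not subtracted, 30 of 63 were above 0 with a median of -0.049, beside 1434 of 2956 over all probes.

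Of soluble enzymes, few could be set against Ctsl and Ctsd. Tpp1, a lysosomal peptidase, was the only other protease with a late value, 0.37 (SE 0.77, 4 of 6 arrays above day 0). Of 10 hydrolases and activators 7 were above 0 and 3 below (median 0.49). Smpd1, acid sphingomyelinase, was at 1.87 (SE 1.23, 4 of 4 arrays) and Idua, which trims glycosaminoglycans, at 1.10 (SE 0.88, 4 of 4), while Gaa, acid glucosidase, was at -0.35 and Asah1, acid ceramidase, at -0.26. The cystatins Cst3 and Cstb, inhibitors of cysteine cathepsins such as cathepsin L, were at 0.46 and 0.06.

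Of 8 probes listed as lysosomal membrane proteins, which include that of the soluble protein Npc2 (0.42), 7 were above 0, with a median of 0.50. The peptide transporter Abcb9 was at 1.36 (SE 0.75, 5 of 5 arrays) and the sialomucin Cd164 at 0.98 (SE 0.69, 6 of 6). Lamp2, the close relative of Lamp1, was at -0.28 (SE 1.09, 2 of 5 arrays), and Laptm4a at 0.10. Of 4 subunits of the V-ATPase, the proton pump that acidifies lysosomes, 2 were above 0. Atp6v1c1 was at 1.82 and Atp6v0a1 at 0.89, and Atp6v0d1 at -0.82 and Atp6v1a at -0.80.

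Sorting proteins were mixed, with 10 of 16 above 0 and a median of 0.17. The SNARE gene Stx7 was at 1.17 and Rab7, the GTPase of late endosomes, at 1.13. Ap3s1, a subunit of the AP-3 adaptor that carries membrane proteins to lysosomes, was at -1.66 (SE 1.03), with 0 of 6 late arrays above its day 0 array. The mannose 6-phosphate receptor M6pr, which delivers cathepsins, was at -1.24 (SE 1.07) on one probe and -0.07 (SE 0.90) on another.

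Among 5 probes of autophagy machinery 4 were above 0, with a median of 0.23. Bnip3l, a receptor that marks mitochondria for removal in reticulocytes, was at 0.03 (SE 1.12, 4 of 6 arrays above 1 day 0 array). Bnip3 was at 0.51, the cargo receptor gene Sqstm1 at 0.26 and Becn1, of the lipid kinase complex that starts autophagosomes, at -0.43. Of 8 regulators 7 were above 0 (median 0.99), with the transcription factor gene Foxo1 at 1.15 and Bcl2 at 1.07. This list mixes genes that promote autophagy with genes that restrain it, such as Mtor (1.16) and Mlst8 (1.58). Its median therefore has no direction for autophagy, and only 1 of these probes, that of Tfec, had enough arrays to be tested. Tfeb itself was at -0.49 (SE 1.53, 1 of 4 arrays), and its relative Tfec at 0.41.

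**Figure D4:**
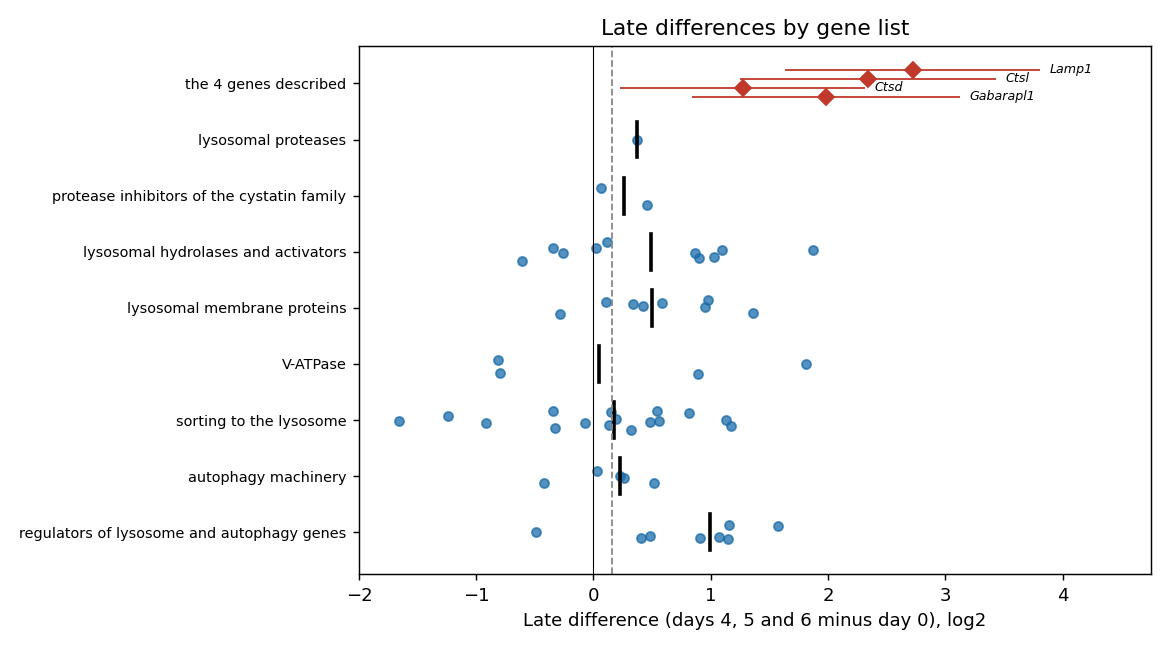
Late difference in log2 (x) for the 4 genes (diamonds, bars show ± SE) and for each probe of the other lists (circles) with the list's median (black bar); the dashed line is the median over all 2615 probes, 0.16. List medians run from 0.04 (V-ATPase) to 0.99 (regulators), and the 4 genes lie between 1.27 and 2.72.

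Markers of other blood cells, several of which are rich in lysosomes, were poorly measured. Of 10 macrophage and monocyte probes, 0 had a late difference, and Cd68 had no value on the 13 arrays. Among granulocyte markers Ngp was at 0.62, Ltf at -0.27 and Prtn3 at -0.64, and among mast cell markers Mcpt2 was at -3.14, Kit at 0.66 and Tpsb2 at -0.02. Of megakaryocyte markers Itga2b was at 2.49, Gp1bb at 0.40 and Pf4 at 0.10. Their part in the values of the 4 genes was not tested. In such bulk samples a change in the share of a cell type and a change per cell cannot be told apart. Of the erythroid markers 6 of 7 were above 0, with Alas2 at 3.60, Hba-ps3 at 4.43, Hbb-b2 at 2.34 and Epor at -0.08. Even Hba-ps3 was not called late in the main limma fit (adjusted p 0.18).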

How the data were processed

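The deposited table held log2 ratios of the 2 channels, per the labels' naming of the channels and as recognised from the values. The authors' scanner, dyes, normalization and ratio direction are not given in the sources used here. Deposited array medians ran from -0.15 to 0.70 log2, and every column had its own median subtracted. The files gave no spot intensities, so the signal behind a ratio is unknown and the number of arrays limits the precision.

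Probes were named from the platform annotation (6108 with 1 symbol, 41 with several, 719 with none). The 4 genes matched the gene table by Entrez identifier. Members and lists were chosen with earlier results of these data known.

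Days were fitted as group means over 13 arrays with limma 3.58.1 in R 4.3.3, with Benjamini-Hochberg adjustment over all probes and a threshold of 0.05. A probe was tested with values on at least 11 arrays and at least 1 of day 0, which left 1221. Lists named up to 2 probes with the highest and 2 with the lowest late difference, given 1 day 0 and 4 late values, and markers with values were added after these were seen. Fits were tested on simulated data. Alternatives covered scaling, SD arrays, the series letter, day 0 and leaving out each array.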

Additional observations from a re-analysis of the deposited data

How the results depend on the processing

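The late differences of the 4 genes stayed above 0 under the alternatives that gave a value, but their size varied. Those of Ctsd and Gabarapl1 could not be formed without day 0 of series A. Where an array was a gene's only value of a late day (for Lamp1 days 4 and 6, for Ctsl day 6, for Gabarapl1 day 5), the late days left were averaged, a choice made after seeing the data. With the orientation term over 18 arrays Lamp1 was at 0.89 and Gabarapl1 at 0.23. limma then called 16 of 1220 probes late (1.31 percent), Ctsl among them. The count was 0 with turned SD arrays, that of day 0 included, averaged into series B. Against 0 in place of day 0, Lamp1 was at 0.39, Ctsl at 0.29 and Gabarapl1 at 0.31, with 309 calls of 1211 (25.5 percent), none of them these genes. Quantile normalization put Gabarapl1 at 3.11. Leaving out 1 array gave late differences of 1.69 to 3.76 for Lamp1, 1.33 (without day 6 of series B) to 3.01 for Ctsl, 0.90 to 1.65 for Ctsd and 1.66 to 2.30 for Gabarapl1, and 0 to 1 call, Hba-ps3, which came when either day 3 array was left out.

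With the series letter as a replicate block there was 1 late call, Hba-ps3. Lamp1 then stood at 0.25 and Gabarapl1 at -0.15 from early to late. Across probes, the A minus B differences of 2 days correlated above 0.1 in 14 of 15 day pairs, up to 0.42, and at -0.0098 in days 5 and 6. Probes thus tended to keep a difference between the series, but not every pair passed 0.1 and the labels tie the letters to no shared batch, so the letters were not used as pairs. From early to late Lamp1 was also above 0 without centring (0.048), and, leaving out one array of series A, that of day 2 (0.79) or day 5 (0.45). Leaving out 1 array gave -0.80 (day 2 of series B) to 0.79 for Lamp1 and -0.20 (day 6 of series B) to 0.44 (day 6 of series A) for Gabarapl1. Early, Ctsl was at -0.064 with SD arrays, that of day 0 included, turned and averaged. Against 0 it was at -1.01 and Ctsd at -0.35. The early median of the other lysosome and autophagy probes was 0.15, but -0.084 with the orientation term, -0.21 against 0 and -0.026 without day 2 of series B. Their late median was -0.049 against 0. The early value could not be formed without day 1. The causes were not tested.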
